A study of Oryza sativa with 3 samples.

Results

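Predicted miRNA precursors whose reads were mostly 23 to 25 nt long were examined in small RNA libraries of rice. A precursor is the hairpin-forming RNA from which a miRNA is cut, and predicted precursors are those that the miRDeep2 program proposed from reads outside the known annotation. The members were selected on measured values, namely 5 or more reads summed over the 3 libraries and a most frequent read length of 23, 24 or 25 nt, with ties given to the longer length. This rule took 147 of the 238 predicted precursors with a read, out of 754 precursors of both kinds with a read. The most frequent length was 24 nt for 137 members, 23 nt for 4 and 25 nt for 6. Members are named by chromosome and prediction number, such as chr4-27017, and no genome coordinates are given because the build is not given in the sources used here.

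The study asked how the level of OsNAR2.1, a partner protein of high-affinity nitrate transporters, affects small RNAs. It compared wild-type Nipponbare (NP), Ov199, which is a single transgenic line carrying OsNAR2.1 behind the Ubi promoter, and a line with OsNAR2.1 RNAi, whose line label reads Ni. All plants grew in field plots in Nanjing with urea as the nitrogen fertilizer, and each library was made at the blooming stage from pooled RNA of leaf, flower and stem. There was 1 library for each line, so no spread between plants could be estimated, and every test below compares libraries and not lines. Levels of OsNAR2.1 mRNA were not measured in these libraries, so the line labels could not be checked against it. Because tissues were pooled, fewer cells of a type and less RNA per cell cannot be told apart.

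In plants, canonical miRNAs are cut by DCL1 from a single-stranded hairpin at precise places, are mostly 21 nt long, often begin with U and are loaded into AGO1. Small interfering RNAs of 24 nt arise along another route, in which Pol IV transcribes transposons and repeats, RDR2 makes the transcript double-stranded and DCL3 cuts it. They often begin with A, are loaded into AGO4 and its relatives, and guide DNA methylation. Rice also has long miRNAs, which DCL3 cuts from hairpins and which are loaded into AGO4. Read length, first base, the sharpness of the read ends and the number of places where a read lies are therefore the usual descriptions of such loci, and none of these alone assigns a locus to either route.

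The most abundant sequence of the members with the most reads is shown first, since these members held 64.2% of the members' reads. Sequences are written 5′ to 3′ with T for U, and capitals mark bases 2 to 8, a stretch used here to compare sequences.
chr4-27017: aGTTAATAcgtgtgcttgggagt
chr1-38364: aTTTCACCcgggactaaagatagc
chr8-12877: gATTTGTAgccagctgtagcacgg
chr3-36796: aCCGGGACtattgtggaattagcc
chr1-43165: aACTGTGCacaataagccgatgctc
chr9-2673: cTCACTGAcatgtagacccgaggg
chr10-4148: aAGAAACCatgggttgtagagtgt
chr3-36147: aACGAGGAggccgggactgtcgga
These 8 sequences have 8 different stretches of bases 2 to 8, and 6 of them begin with A. The sequence of chr3-36147 is also that of chr1-39854, chr11-13218 and chr5-22503, whose reads were the same in every library.

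The next sequences belong to some of the members with a called difference between libraries, described further on, and are not a ranking.
chr12-6690: aCTGCCATggactgaaggacgagg
chr12-6482: cCTCGCCGgcacgtgcgtgcaccc
chr2-31423: aAGCGCCGacacaacaatgactgg
chr10-4863: aTTTGGAAtgtagctggatttggc
chr4-27820: aAGAACATctaagggactgagttg
chr1-41696: aATTTGGCttagaactggcaccta
chr4-28386: aGCAGTTTggagtagaaggtggga
chr10-4722: gAGAGAATtttgttaggtcgaggc
chr5-21755: aAGGAGGAtataactattggtgcc
Bases 2 to 8 of chr12-6482 recurred in the most abundant sequence of chr12-7134.
chr12-7134: cCTCGCCGgcgcgcgtgctcaccct
In all, 130 distinct most abundant sequences were found at the 147 members, and they held 125 different stretches of bases 2 to 8. Only 5 of these stretches were shared by more than 1 sequence, each by 2 sequences. Bases 2 to 8 were thus rarely shared, beyond members that were identical to each other.

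The members took 3797 of 49341 aligned reads in NP, or 7.70% (95% Wilson interval, 7.46 to 7.93%). They took 6106 of 94154 reads in Ov199, or 6.49% (6.33 to 6.64%), and 3841 of 62724 reads in RNAi, or 6.12% (5.94 to 6.31%). The share was thus highest in NP and lowest in RNAi. The reads carry no molecular identifiers, so these intervals cover counting error only. The member chr4-27017 alone held 27.3% of the 13744 reads of the members over the 3 libraries, each read counted 1 time, and without it the shares were 5.26%, 4.41% and 5.18% in the NP, Ov199 and RNAi libraries. Without this member, Ov199 was lowest and the shares of NP and RNAi came close. Relative to all adapter-trimmed reads, of which there were 1953265, 3147171 and 2530963, the members took 0.194%, 0.194% and 0.152% in the NP, Ov199 and RNAi libraries.

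Reads were spread unevenly over the members. With each read counted 1 time, the 3 members with the most reads held 49.6% of the reads and the first 10 with distinct reads held 67.0%, while the median member had 27 reads over the 3 libraries. A total of 24 members had 100 reads or more, and 53 had fewer than 20. Reads were found at 135 members for NP, 143 for Ov199 and 141 for RNAi, and 129 members were read in all 3 libraries. A count of 0 allows up to 3 reads, or normalized counts of 60.8 (NP), 31.9 (Ov199) and 47.8 (RNAi), where a normalized count is the reads per 1000000 aligned reads. Many members lay near this limit, so that absence from a library could rarely be told from low depth. Members came from all 12 chromosomes, with 5 on chromosome 11 and 18 on chromosome 1.

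The thresholds of the rule fell among members with few reads. The member chr7-17503 had 5 reads and 5 other members had 6. Just outside were 4 predicted precursors with reads of 23 to 25 nt, chr1-40736 with 3 reads and chr11-13222, chr12-8503 and chr12-8505 with 1 read each. On the length side, 20 predicted precursors had a most frequent length of 22 nt and 1 of 26 nt. The length of 4 members rested on a tie, and 3 of them, chr12-8096, chr6-26107 and chr7-17503, would leave if ties went to the shorter length.

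Read lengths were used to choose the members and are given as a description. Reads of 24 nt made up 44.7%, 43.5% and 50.6% of the members' reads in the NP, Ov199 and RNAi libraries, and reads of 23 nt made up 19.99%, 21.1% and 13.0%. The smaller share of 23 nt in RNAi moved with chr4-27017, whose most abundant sequence is 23 nt long. Without that member, reads of 24 nt made up 52.7%, 51.5% and 55.0%, and reads of 23 nt 10.7%, 10.4% and 10.04%. Of the 130 distinct most abundant sequences, 114 were 24 nt long.

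**Figure D1:**
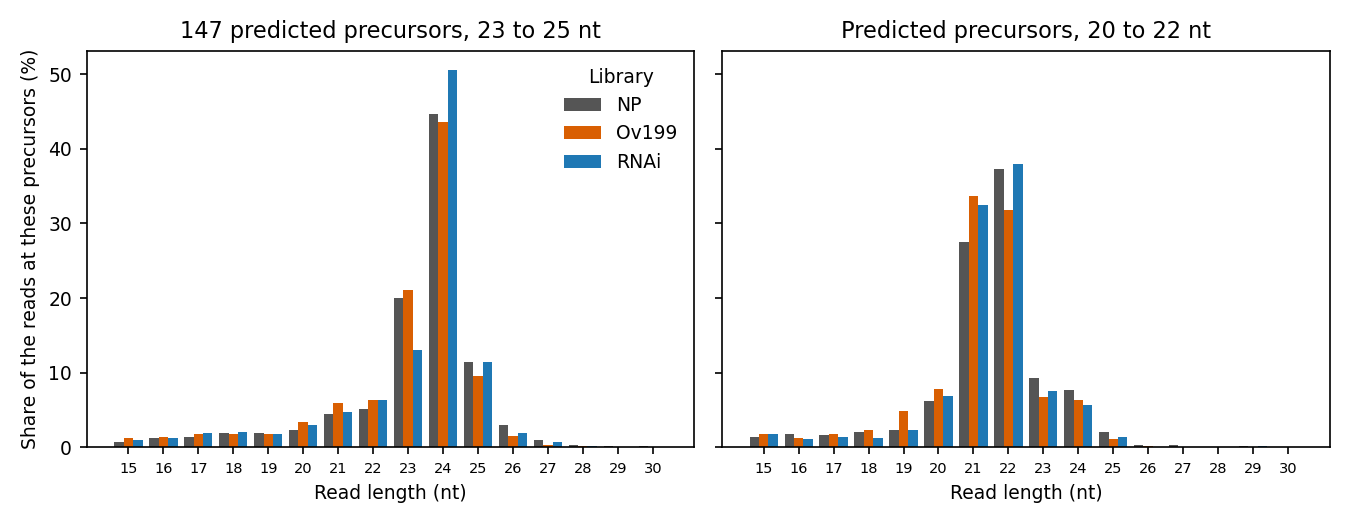
Share of reads (%) by read length (nt) at the 147 members and at the 64 predicted precursors with reads of mostly 20 to 22 nt, in NP, Ov199 and RNAi. The lengths chose both sets. At the members the 24 nt bar is the highest in each library, and the 23 nt bar of RNAi, at 13.0%, lies below those of NP (19.99%) and Ov199 (21.1%).

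The first base was not used by the rule. The most abundant sequence began with A at 108 of 147 members (73.5%) and with T at 5 (3.4%). By the same count, A began 59.7% of the sequences of the 119 known precursors with reads of mostly 23 to 25 nt and 37.5% of those of the 64 predicted precursors with reads of mostly 20 to 22 nt. At the 223 known precursors with reads of mostly 20 to 22 nt, A began 20.2% and T began 51.1%. By this count members carried A more often than the other sets did, as a description of these precursors that was not tested. Over all reads of the 3 libraries A began 52.3% at the members and 42.2% at known precursors of mostly 23 to 25 nt. Among reads of 24 nt the order turned, with 56.6% at the members and 66.0% at those known precursors. Over all reads of the members the share with A was 51.4% in NP (49.8 to 53.0%), 53.2% in Ov199 (51.9 to 54.4%) and 51.9% in RNAi (50.3 to 53.5%). The intervals of the 3 libraries overlapped. The last bases were CC in 24.6% of the distinct most abundant sequences and GG in 17.7%, and the median GC content was 50%, with a range of 25 to 80%.

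Levels in the lines were compared member by member. A difference was past 2-fold when the ratio of normalized counts, each with 10 added, was at least 2 or at most 0.5, which understates the change of members with few reads. A two-sided Fisher's exact test set a precursor's reads beside the remaining reads of a pair of libraries, with Benjamini-Hochberg adjustment over all precursors with a read in either library, known ones included, and a threshold of 0.05. The highest normalized count fell in NP for 62 members, in Ov199 for 29 and in RNAi for 56, and the lowest fell in Ov199 alone for 63, in RNAi alone for 45 and in NP alone for 35, with 4 ties. Which library was most often lowest depended on the scaling. Relative to adapter-trimmed reads RNAi was lowest for 57 members, Ov199 for 50 and NP for 36. Among the 24 members with 100 reads or more, RNAi was lowest for 10, Ov199 for 9 and NP for 5 by aligned reads. The 10 include chr3-36147 and the members identical to it, so the same reads count 4 times there. The lead of RNAi over Ov199 in this tally rests on that repeated count.

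In Ov199 against NP, 146 members had a read. Past 2-fold, 16 members were higher, beside 21.9% of all 722 precursors tested, and 34 were lower, beside 18.8%. These were 11.0% and 23.3% of the members, and 29 of the 50 had under 10 reads in each of the pair. By the exact test 3 members were higher, beside 7.34% of all precursors, and 17 were lower, beside 9.56%. The called members were 2.05% and 11.6% of those tested, so few members were higher and the share lower was near that of all precursors. The median ratio was 0.80 over the members and 1.00 over all precursors. Scaling to adapter-trimmed reads gave 6 higher and 10 lower members by the exact test, and 18 higher and 24 lower past 2-fold. The share of all precursors under this scaling was not counted, so these counts say nothing particular to the members.

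In RNAi against NP, 144 members had a read. Past 2-fold, 25 were higher, beside 23.1% of all 709 precursors, and 24 were lower, beside 17.6%. These were 17.4% and 16.7% of the members. By the exact test 2 were higher, beside 7.76% of all precursors, and 8 were lower, beside 5.22%, or 1.39% and 5.56% of the members. The members had few calls in this comparison, and the share lower was again near that of all precursors. The median ratio was 0.95 over the members and 1.04 over all precursors.

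In RNAi against Ov199, all 147 members had a read. Past 2-fold, 38 were higher, beside 23.7% of all 730 precursors, and 15 were lower, beside 19.3%. These were 25.9% and 10.2% of the members. By the exact test 19 were higher, beside 11.9% of all precursors, and 5 were lower, beside 7.67%, or 12.9% and 3.4% of the members. Calls at the members were mostly towards RNAi, but the share higher was near that of all precursors, and the share lower was below it. This split depended on the scaling. Scaling to adapter-trimmed reads gave 11 higher and 10 lower members by the exact test and 30 and 23 past 2-fold, and TMM gave 13 and 7. The shares of all precursors under these scalings were not counted, so a change at the members cannot be told from a change of all precursors. The adapter-trimmed reads moved every log2 ratio of Ov199 against NP by 0.24 and of RNAi against Ov199 by -0.27, and TMM moved them by 0.13 and -0.18. The comparisons share libraries, so their counts are not independent.

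**Figure D2:**
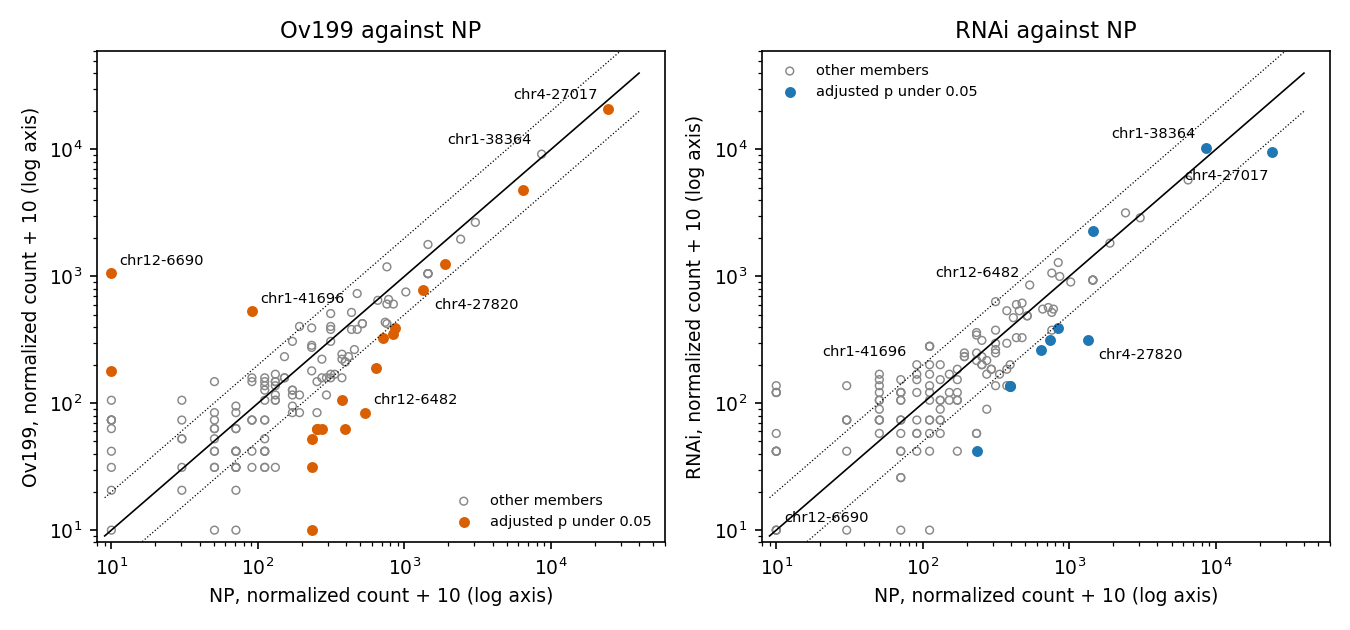
Normalized count + 10 of each of the 147 members in Ov199 (left) and RNAi (right) against NP, on log axes. The solid line marks equal levels, the dotted lines 2-fold, and filled points the 20 and 10 members with an adjusted p under 0.05 by Fisher's exact test. Filled points of Ov199 lie mostly below the line, and chr12-6690 stands apart at 0 reads in NP and 99 in Ov199.

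The most read member, chr4-27017, had 1203 NP reads, 1958 Ov199 reads and 594 RNAi reads, or 24381, 20796 and 9470 normalized counts. It was lowest in RNAi by a wide margin. The ratio was 0.39 for RNAi against NP (exact test, adjusted p = 3.32e-84) and 0.46 for RNAi against Ov199 (adjusted p = 7.38e-70), and both calls remained under all 11 alternatives tried. For Ov199 against NP the ratio was 0.85 (exact test, adjusted p = 0.000187). That small difference was lost with TMM (0.93, adjusted p = 0.201) and had the other sign with adapter-trimmed reads (1.01, adjusted p = 0.99) and with reads of 23 to 25 nt alone (1.12, adjusted p = 0.0771).

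The sequences at chr4-27017 differed mainly at the ends. Its first 3 sequences show this, with their first and last positions on the precursor counted from its 5′ end.
chr4-27017, positions 29 to 51: aGTTAATAcgtgtgcttgggagt
chr4-27017, positions 28 to 51: tAGTTAATacgtgtgcttgggagt
chr4-27017, positions 29 to 52: aGTTAATAcgtgtgcttgggagtc
They were read 1347, 574 and 336 times. A start 1 base earlier shifts bases 2 to 8, and the share of the 23 nt sequence was 35.9%, 38.8% and 26.1% of the member's NP, Ov199 and RNAi reads. Position 29 was the most used first position in each library, with 51.3%, 57.7% and 46.5% of the NP, Ov199 and RNAi reads. All libraries thus kept the same leading end, with a less dominant 23 nt form in RNAi.

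The next member by reads, chr1-38364, had 426 NP reads, 865 Ov199 reads and 643 RNAi reads, or 8634, 9187 and 10251 normalized counts. Its levels lay close together. The ratio was 1.19 for RNAi against NP (exact test, adjusted p = 0.0477), and this call was lost under 5 of 11 alternatives, over which the adjusted p ranged from 0.0192 to 0.389. The ratio for Ov199 against NP was 1.06 (adjusted p = 0.618, exact test). A total of 356 distinct sequences lay at this precursor. The most abundant one, shown above at positions 50 to 73, made up 23.8% of the reads, and 12.5% belonged to a form that starts 4 bases later, at positions 54 to 77.
chr1-38364, positions 54 to 77: cACCCGGGactaaagatagcgatc

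The member chr8-12877 had 319 NP reads, 451 Ov199 reads and 360 RNAi reads, or 6465, 4790 and 5739 normalized counts. It was lower in Ov199 than in NP by a ratio of 0.74 (exact test, adjusted p = 0.000593). With adapter-trimmed reads the ratio was 0.88 (adjusted p = 0.247), without sequences read 1 time 0.87 (adjusted p = 0.261), and with reads of 23 to 25 nt alone 0.83 (adjusted p = 0.366), so the call depended on the counting. Its reads fell into 343 distinct sequences, of which the most abundant held 53 of 1130 reads, the smallest share among members with 50 reads or more. The most used first position was 56 for NP, 57 for Ov199 and 51 for RNAi.

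The member chr1-43165 was the most uniform among members with 100 reads or more. It had 119 NP reads, 184 Ov199 reads and 198 RNAi reads, or 2412, 1954 and 3157 normalized counts. It was higher in RNAi than in Ov199 by a ratio of 1.61 (exact test, adjusted p = 4.35e-05), and the call remained under all 11 alternatives. The ratio of RNAi against NP was 1.31 (exact test, adjusted p = 0.107). A single sequence of 25 nt held 447 of its 501 reads, or 88.2%, 87.0% and 91.9% in the NP, Ov199 and RNAi libraries.

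The members chr3-36796, chr9-2673 and chr10-4148 followed by reads. The first, chr3-36796, had 150, 250 and 181 reads in NP, Ov199 and RNAi, or 3040, 2655 and 2886 normalized counts, and no comparison was called. The level of chr9-2673 was lowest in NP, with 71, 167 and 141 reads in the same order, and its ratio was 1.56 for RNAi against NP (exact test, adjusted p = 0.0217). For chr10-4148, with 93, 116 and 114 reads, Ov199 was lowest and its ratio to NP was 0.66 (exact test, adjusted p = 0.0218). That call was lost under 5 of 11 alternatives. The 4 identical members chr3-36147, chr1-39854, chr11-13218 and chr5-22503 had 71, 98 and 58 reads, and no comparison passed the test, with ratios of 0.73 for Ov199 and 0.65 for RNAi against NP (exact test, adjusted p = 0.169 and 0.0827).

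**Figure D3:**
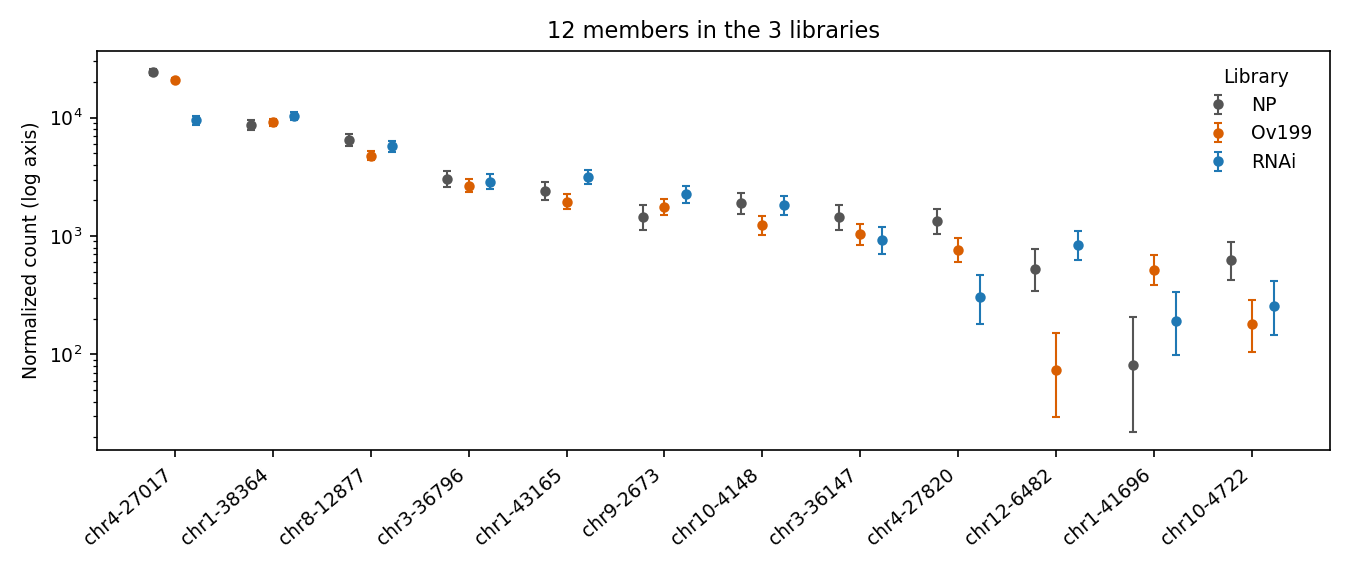
Normalized counts (log axis) of 12 members in NP, Ov199 and RNAi. Points are the single library of each line, bars are exact 95% Poisson intervals of the reads and cover counting error only, and chr3-36147 stands for its 4 identical members. RNAi lies lowest at chr4-27017 and chr4-27820, and Ov199 lies lowest at chr12-6482 and highest at chr1-41696.

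The member furthest from equal levels was chr12-6690, which had 0 NP reads, 99 Ov199 reads and 0 RNAi reads. Its level in Ov199 was 1051 normalized counts. It was therefore at least 15.0-fold higher in Ov199 than in NP (exact test, adjusted p = 6.71e-17) and at least 18.4-fold lower in RNAi than in Ov199 (adjusted p = 1.06e-20), with 3 reads taken as the limit of a count of 0 in each library. Both calls remained under all 11 alternatives. Its 99 reads were spread over 26 distinct sequences with 9 first positions, so that they were not copies of a single sequence. The shown sequence was read 32 times.

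A few other members were higher in Ov199 or nearly absent from NP. The member chr1-41696 had 4 NP reads, 49 Ov199 reads and 12 RNAi reads, a ratio of 5.82 for Ov199 against NP (exact test, adjusted p = 0.000122) and of 0.38 for RNAi against Ov199 (adjusted p = 0.00707). The member chr8-10822 had 0, 16 and 7 reads, at least 2.54-fold higher in Ov199 than in NP (exact test, adjusted p = 0.0184). The member chr4-28386 had 11, 36 and 3 reads and was lower in RNAi than in Ov199 by a ratio of 0.15 (exact test, adjusted p = 0.000133), which remained under all 11 alternatives. The only members called higher in Ov199 than in NP were thus chr12-6690, chr1-41696 and chr8-10822.

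Members lower in Ov199 were led by chr2-31423, with 11 NP reads, 0 Ov199 reads and 3 RNAi reads. Its level in Ov199 was at least 5.56-fold lower than that of NP (exact test, adjusted p = 0.000122). The member chr12-6482 had 26, 7 and 53 reads, with ratios of 0.16 for Ov199 against NP (exact test, adjusted p = 4.20e-06) and 10.1 for RNAi against Ov199 (adjusted p = 3.23e-13). Its shown sequence, at positions 6 to 29, had 6 NP reads, 0 Ov199 reads and 18 RNAi reads, and no read of Ov199 began at position 6, where 42.3% of the reads in NP and 49.1% in RNAi began. The few reads of this member in Ov199 began most often at position 47 instead. The calls of both members remained under all 11 alternatives.

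Among members with more reads, chr5-21755 had 41 NP reads, 32 Ov199 reads and 80 RNAi reads. Its ratio was 0.42 for Ov199 against NP (exact test, adjusted p = 0.00197), lost under 1 of 11 alternatives, and 3.67 for RNAi against Ov199 (adjusted p = 4.95e-10), lost under none of them. The member chr1-41196, with 42, 36 and 62 reads, had a ratio of 0.46 for Ov199 against NP (exact test, adjusted p = 0.00474), lost under 1 of 11, and of 2.54 for RNAi against Ov199 (adjusted p = 5.46e-05), lost under none. The member chr7-18058, with 35, 30 and 35 reads, had a ratio of 0.46 for Ov199 against NP (exact test, adjusted p = 0.0134), lost under 3 of 11. These 3 members were chosen after their values were seen.

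Other members called lower in Ov199 had few reads. The member chr10-4863 had 11 NP reads, 2 Ov199 reads and 15 RNAi reads, with ratios of 0.13 for Ov199 against NP (exact test, adjusted p = 0.00318) and 7.97 for RNAi against Ov199 (adjusted p = 0.000647). The member chr12-6092 had 19, 5 and 12 reads and a ratio of 0.16 for Ov199 against NP (exact test, adjusted p = 0.000135). The members chr5-21919, chr6-26107, chr10-4373 and chr4-28051 had between 11 and 13 reads in NP and 4 or 5 in Ov199, with ratios from 0.23 to 0.25. In all 4, the call was lost under at least 2 of 11 alternatives. The member chr5-21919 also had 2 reads in RNAi, a ratio of 0.18 to NP (exact test, adjusted p = 0.0344), lost under 4 of 11 alternatives. The member chr5-21745 had 18, 9 and 11 reads and a ratio of 0.28 for Ov199 against NP (exact test, adjusted p = 0.00758), which remained under all 11 alternatives.

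Some members were low in RNAi or in both transgenic lines. The member chr4-27820 had 66 NP reads, 72 Ov199 reads and 19 RNAi reads, and its ratio was 0.23 for RNAi against NP (exact test, adjusted p = 1.47e-08) and 0.40 for RNAi against Ov199 (adjusted p = 0.00141). It was also lower in Ov199 than in NP, by a ratio of 0.57 (exact test, adjusted p = 0.0107), lost under 3 of 11 alternatives. Most reads of this member carried a base that differs from the precursor, and with exact alignments alone both ratios of RNAi were near 1, at 0.88 and 0.91 (exact test, adjusted p = 1 for both). The member chr10-4722 had 31, 17 and 16 reads and was lower than in NP in both lines, with ratios of 0.30 for Ov199 (exact test, adjusted p = 0.000329) and 0.42 for RNAi (adjusted p = 0.0279). The call in RNAi was lost under 4 of 11 alternatives, that in Ov199 under none of them. The ratios of RNAi against NP were 0.42 for chr9-1452, with 36, 40 and 19 reads, and 0.47 for chr6-22803, with 41, 56 and 24 reads (exact test, adjusted p = 0.0184 and 0.0237). These calls were lost under 4 and 3 of 11 alternatives, with adjusted p up to 0.564 and 0.221. The identical pair chr1-40608 and chr2-32664, with 19, 19 and 8 reads, had a ratio of 0.35 (exact test, adjusted p = 0.0499), which was lost under 6 of 10 alternatives.

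Of the 19 members called higher in RNAi than in Ov199, 8 had 3 reads or fewer in Ov199, 4 had 4 to 9 and 7 had 10 or more. The last were chr1-43165, chr5-21755 and chr1-41196, given above, with chr10-4148 at a ratio of 1.47 (exact test, adjusted p = 0.0219), lost under 4 of 11 alternatives, and chr4-28353, chr6-25708 and chr1-42564 at 2.20, 2.37 and 2.02 (adjusted p = 0.0209, 0.0373 and 0.0361). The last 3 were named after their values were seen.

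The others were near the limit of detection in Ov199 or had few reads there. The member chr4-27372 had 3, 0 and 7 reads in NP, Ov199 and RNAi, at least 2.90-fold higher in RNAi than in Ov199 (exact test, adjusted p = 0.0109). The member chr8-10678 was read in RNAi alone, 7 times, at least 2.90-fold above Ov199 (exact test, adjusted p = 0.0109). The member chr2-30741 had 2, 0 and 6 reads, at least 2.52-fold higher (exact test, adjusted p = 0.0233). Such bounds, also with 10 added, are small beside the ratios that take the count of 0 as it was read. A handful of reads carries little precision. For chr9-2617, with 5, 4 and 17 reads, the ratio was 5.35 (exact test, adjusted p = 0.00163). For the identical pair chr11-15641 and chr8-12803, with 5, 3 and 17 reads, it was 6.71 (exact test, adjusted p = 0.000912). For chr2-29985, with 0, 1 and 8 reads, it was 6.67 (exact test, adjusted p = 0.0223). Each of the calls in this paragraph was lost under 1 to 3 alternatives.

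The precision of the ends was measured as the share of a member's reads that begin, or end, at its most used position. For the last position, reads with an inserted or deleted base were left out, so the denominators of the ends differ. Over the 147 members the median share at the most used first position was 50% and at the most used last position 55.3%. Within 2 nt of the most used first position lay a median of 80.2% of the reads, and 73 members had at least 1 read that began over 15 nt away. With these unlike denominators, the last position had the higher share at 78 members and the first at 41. Starts were thus concentrated within a few bases and seldom at a single base. Over 80% of the reads lay at 1 first position at 17 members, of which 4 had 50 reads or more. Only 1 sequence was read at 6 members. The 6 include chr10-4145 and the members identical to it, which hold the same 8 reads.

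Beside the other sets, the median share at the most used first position was 37.5% at known precursors with reads of mostly 23 to 25 nt, 53.5% at known precursors with reads of mostly 20 to 22 nt and 58.8% at predicted precursors with reads of mostly 20 to 22 nt. For the most used last position these medians were 33.3%, 52.6% and 66.7%. The members lay between known precursors of their own length and predicted precursors of the shorter length at both ends. Precision depends on the number of reads, and at precursors with 50 reads or more the medians for the first position were 48.9% at 46 members, 31.4% at 62 known precursors of 23 to 25 nt, 57.7% at 117 known precursors of 20 to 22 nt and 44.4% at 24 predicted precursors of 20 to 22 nt. The order of the 2 predicted sets thus turned with this minimum. These differences were not tested.

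Among members with 50 reads or more, chr7-17212 had the sharpest start, with 92.9% of 70 reads at position 6, followed by chr1-43165 with 91.4% of 501 reads and chr10-4722 with 82.8% of 64 reads. The most scattered starts were those of chr2-29750, with 18.5% of 108 reads, chr9-905 with 20.8% of 106 and chr8-12877 with 20.8% of 1130. The sharpest member is shown beside the most scattered, whose most abundant sequence was only 16 nt long.
chr7-17212: aATAGAGAtcagcactgtagatgc
chr2-29750: aGTCAGCTgtagcacg
The sequence of chr7-17212 was read 64 times, that of chr2-29750 7 times. The most abundant sequences of chr2-29750 and chr8-12877 share a run of 13 bases, CAGCTGTAGCACG. At 66 of the 147 members the most used first position was position 6 of the predicted precursor.

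The leading start was mostly the same across the libraries. Of 48 members with 10 or more reads in each library, 31 (64.6%) had the same most used first position in all 3, 9 differed by 1 or 2 nt and 8 by more than 2 nt. The first 7 distinct members by reads included only 1, chr8-12877, whose leading start differed between libraries.

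Reads beyond the single most abundant sequence made up a median of 65.5% of a member's reads, and over 50% at 104 of 147 members (70.7%). The medians were 78.5% at known precursors with reads of mostly 23 to 25 nt, 58.9% at known and 55.8% at predicted precursors with reads of mostly 20 to 22 nt. A single sequence therefore held the smaller part of the reads at most members. The median member had 11 distinct sequences and the richest, chr1-38364, had 356. The largest shares beyond the most abundant sequence among members with 50 reads or more were 95.3% at chr8-12877, 95.3% at chr9-905 and 93.7% at chr9-1452. At the other end, chr7-17212 had 8.57% of its reads beyond the most abundant sequence and chr1-43165 10.8%.

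**Figure D4:**
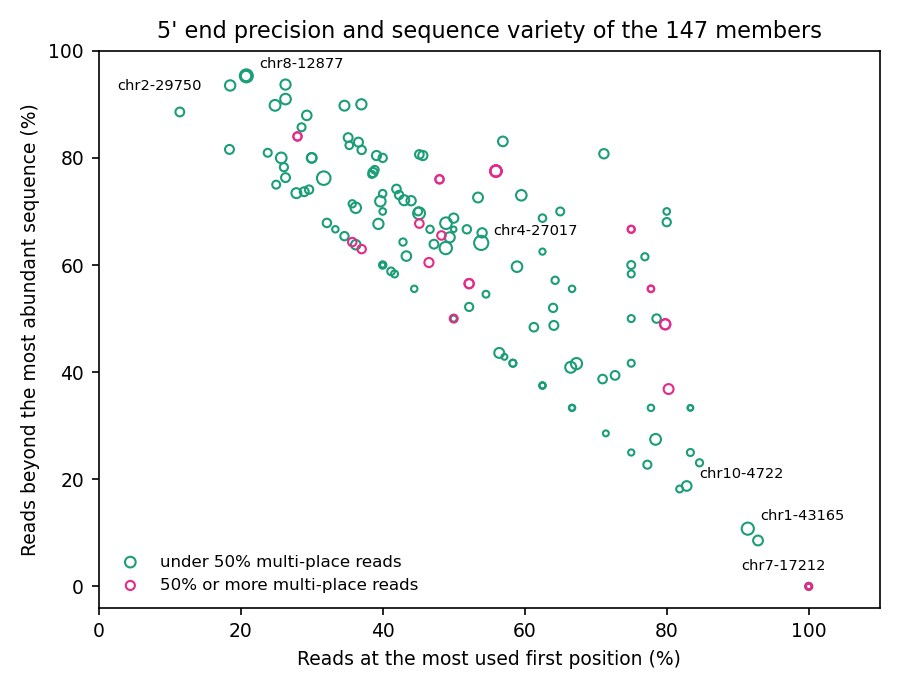
Share of reads (%) at the most used first position against the share (%) beyond the most abundant sequence, 1 point for each of the 147 members, with larger points for more reads and colours for the share of multi-place reads. Members run from scattered, such as chr8-12877 at 20.8% and 95.3%, to uniform, such as chr7-17212 at 92.9% and 8.57%, and the 2 axes share reads, since the most abundant sequence has a single start.

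The sequence predicted as the mature product was looked up for each member, and 105 of the 147 members had one. All 105 were read without mismatch, and 77 were also the member's most abundant sequence. The predictions were made from the study's own reads, so both counts follow in part from how the sequences were chosen. The predicted sequence held a median of 29.3% of a member's reads and under 50% at 82 members. Counting a member by its predicted sequence alone thus leaves out most of its reads. At 20 members the predicted sequence matched the precursor while the most abundant sequence carried a mismatch. For chr3-36796 it was read 3 times among 581 reads, for chr10-4148 33 times among 323, and for chr8-12311 15 times among 214.

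Reads that lay at several precursors were few in number but concentrated at some members. They made up 5.64% of the reads of the members in NP (4.95 to 6.42%), 5.22% in Ov199 (4.69 to 5.81%) and 5.31% in RNAi (4.65 to 6.07%), with overlapping intervals. At 97 members no read lay at another listed precursor, at 27 (18.4%) at least 50% did, and at 21 all did. A further 2.69% (NP), 3.54% (Ov199) and 4.06% (RNAi) of the members' reads had the status for several places but listed a single precursor. These reads were not counted as multi-place. Over the 3 libraries they were 3.45% at the members, 4.18% at predicted precursors of mostly 20 to 22 nt, and 2.32% and 0.58% at known precursors of mostly 23 to 25 and 20 to 22 nt. The share of precursors with at least 50% was 25.2% for known precursors of mostly 23 to 25 nt, 45.3% for predicted and 54.7% for known precursors of mostly 20 to 22 nt. By listed places, multi-place reads thus touched fewer precursors among the members than in the other sets, without a test. Of the multi-place reads of the members, 74.8%, 74.9% and 76.5% in the NP, Ov199 and RNAi libraries lay at other members alone, and 19.6%, 18.8% and 19.1% also lay at a known precursor.

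Most of the sharing came from precursors with identical reads. There were 8 groups of such members, with 20 members in all, so that the 147 members held 135 distinct sets of reads. The most abundant sequence lay at 4 precursors, the largest number, in 2 groups. The group of chr3-36147 held 227 reads in 43 distinct sequences, and the group of chr10-4145, chr4-29296, chr5-22618 and chr8-10835 held 8 reads of a single sequence, with 0 from NP, 6 from Ov199 and 2 from RNAi.
chr10-4145: aCAATTCGagccgaactcaagcct
Reads at identical members cannot be assigned to any 1 of them, and each was counted at every place.

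Related but not identical sequences also recurred. Runs of 12 or more shared bases joined 25 of the distinct most abundant sequences into 10 families. The pair chr1-38364 and chr8-12311 shared the run ACCCGGGACTAAAGAT, and chr9-1452 and chr9-1451 shared 23 bases with a start shifted by 1 base. The sequences are shown for this overlap, with that of chr1-38364 above.
chr8-12311: aATACCCGggactaaagatcgatc
chr9-1452: aGATTCGTtgttctaggaggggtc
chr9-1451: gATTCGTTgttctaggaggggtcg
A family of 5 members around chr9-2673 also held chr10-4128, chr8-12998, chr6-26107 and chr9-2828 and had 117 NP reads, 223 Ov199 reads and 173 RNAi reads, of which chr9-2673 alone held 71, 167 and 141. The pair chr4-28353 and chr1-41696 shared 20 bases, TGGCTTAGAACTGGCACCTA. Its members had 18, 22 and 33 reads and 4, 49 and 12 reads in NP, Ov199 and RNAi, so that similar sequences did not go with similar levels in this pair.

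Mismatched reads were frequent. The alignments allowed 1 difference, and 31.02% of the reads of the members in NP (29.6 to 32.5%), 31.9% in Ov199 (30.7 to 33.1%) and 34.9% in RNAi (33.4 to 36.5%) differed from the precursor at 1 base. Without chr4-27017 these shares were 42.1%, 43.6% and 40.4%. At known precursors with reads of mostly 20 to 22 nt they were 11.6%, 11.0% and 10.8%, and at known precursors of mostly 23 to 25 nt 24.9%, 20.3% and 20.7%. Predicted precursors of mostly 20 to 22 nt had more than the members, with 60.0%, 56.8% and 55.9%. By precursor, the median share of mismatched reads was 25% at the members and 50% at known precursors of mostly 23 to 25 nt. Frequent mismatches were thus not particular to the members. Over 50% of the reads were mismatched at 43 members, and at 33 members the most abundant sequence itself was. High shares were common among well-read members as well, with 21 of the 46 members of 50 reads or more over 50%.

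At many of these members the mismatched reads carried a single repeated change. Of the 21 members, 14 had at least 50% of the mismatched reads with the same change and 7 had at least 80%, and that change was read in all 3 libraries at each of the 21. The most frequent change held a median of 62.5% of the mismatched reads at these 21 members, against 27.3% at the 25 members with 50 reads or more and at most 50% mismatched. The members in the rest of this account of changes, other than chr10-4148, chr3-36796 and chr4-27820, were chosen after their values were seen. Changes are given as the base of the precursor, the position on the precursor from its 5′ end, and the base of the read. Shares of the reads over a position leave out reads aligned with an inserted or deleted base.

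At chr8-12311 the change G20A was carried by 83.8% of the reads over that position in NP, 92.7% in Ov199 and 87.9% in RNAi. Within the most abundant sequence this is G15A, counted from the 5′ end of the read. The form with the change and the exact form were read 125 and 15 times.
chr8-12311, with the change: aATACCCGggactaaagatcgatc
chr8-12311, exact: aATACCCGggactagagatcgatc
At chr10-4148 the change T11A, which is T6A within the most abundant sequence and so lies in bases 2 to 8, was carried by 83.3%, 78.3% and 74.7% of the NP, Ov199 and RNAi reads. The changed and the exact form were read 104 and 33 times.
chr10-4148, with the change: aAGAAACCatgggttgtagagtgt
chr10-4148, exact: aAGAATCCatgggttgtagagtgt
Both forms were read in all 3 libraries at both members.

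Other changes were carried by most of the reads counted over the position. At chr3-36796 the change A74C was carried by 95.6% of 68 reads in NP, 91.7% of 109 in Ov199 and 100% of 81 in RNAi. It is A2C within the most abundant sequence. The next sequence of chr3-36796, also at positions 73 to 96, was aligned with an inserted C in place of this change. Its 13 NP, 15 Ov199 and 18 RNAi reads are left out of these shares, which are therefore too high for all reads over the position. At chr4-27820 the change A30G was carried by 93.7% of 63 reads in NP, 92.9% of 56 in Ov199 and 100% of 10 in RNAi. Within the most abundant sequence of chr4-27820 it is A24G, the last base. At chr2-30896 the change was A15G with 85.7%, 90.0% and 83.9%, at chr4-28886 T66C with 100%, 90.9% and 91.4%, and at chr5-22756 C58G with 100%, 91.2% and 100%. Within the most abundant sequences these are A10G, T11C and C24G, and the last of these is again the last base. The shares in the 3 libraries lay close together at each of these members, and their difference was not tested.

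The most abundant sequence of chr1-40283 and its identical copy chr2-30251 was also that of chr6-23393, and it matched none of the 3 precursors exactly. It had 14 NP reads, 21 Ov199 reads and 13 RNAi reads. Within this read the difference is G16C from chr1-40283 and A9G from chr6-23393.
chr1-40283 and chr6-23393: aACGCCACgtaggatcctgaaggg
Bases 2 to 8 of this sequence also occurred in the most abundant sequence of chr1-40608, which matched its own precursor.
chr1-40608: aACGCCACataggatcatgaaggg
Whether such changes come from the plants, from copies of the loci elsewhere in the genome or from the predicted precursor sequences was not tested.

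**Figure D5:**
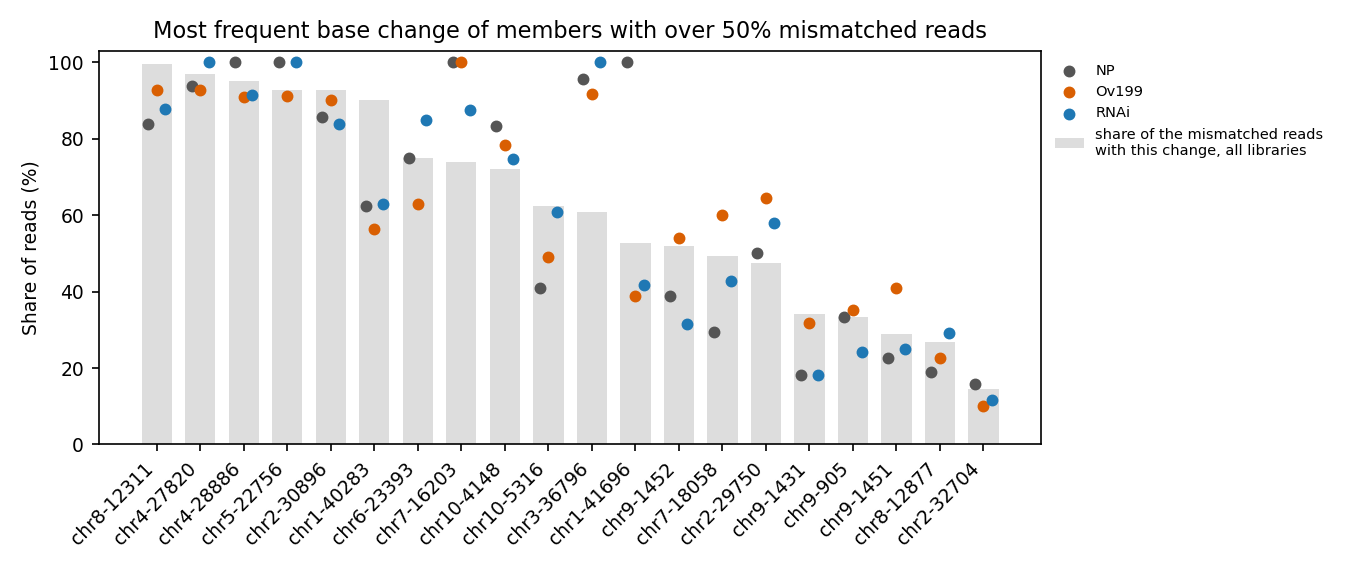
Most frequent base change at the 20 distinct members with 50 reads or more of which over 50% were mismatched. Grey bars are the share (%) of all mismatched reads with this change, and points are the share (%) of reads over the position in NP, Ov199 and RNAi. The points leave out reads with an inserted or deleted base. From chr8-12311 at the left, where the bar reaches 99.5%, the bars fall to 14.4% at chr2-32704.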

How the data were processed

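Small RNAs were read in 3 libraries, 1 for each line. The authors removed adapters and low-quality reads, collapsed identical reads, aligned them to known and miRDeep2-predicted precursors and deposited, for each collapsed sequence and place, an unnormalized read count. The aligner and genome build are not given in the sources used here. Of the files' columns, 0 came from other samples.

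Reads per precursor were summed, with each sequence counted 1 time per precursor and library and at every precursor where it lay. Normalized counts were reads per 1000000 aligned reads. Fisher's exact test, adjusted by Benjamini-Hochberg over all precursors, was used because 1 library per line leaves no residual degrees of freedom. The test was also run on simulated counts with planted changes. These counts had no variation between plants or library preparations, so the run cannot show whether calls between single libraries would hold between plants. Shares have 95% Wilson intervals. Library depths were 49341 (NP), 94154 (Ov199) and 62724 (RNAi) reads, so that 1 read was worth 20.3, 10.6 and 15.9 normalized counts.

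The members and the classes compared were chosen with earlier results of these data known. Named were the 10 members with the most reads, up to 8 called members with the largest ratios in each direction and comparison, members that the study names, and extremes of end precision, sequence variety and places. Alternatives were pseudocounts of 1 and 100, adapter-trimmed, TMM (edgeR) and DESeq2 scaling, other countings of reads and smaller sets of members. Ties to the shorter length and the shares without chr4-27017 were added after seeing the data. Software comprised edgeR 4.0.16 and DESeq2 1.42.0 under R 4.3.3, and scipy 1.17.1, pandas 2.3.3, matplotlib 3.10.9 and numpy 2.4.6 under Python 3.11.15.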

Additional observations from a re-analysis of the deposited data

How the results depend on the processing

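Of 128 summary values recomputed under alternatives, 89 stayed within a tolerance set for their kind of value and 39 did not. For counts of called members and for medians over members, this tolerance was not the counting error of the reads. Reads of 23 to 25 nt alone lowered the members called by the exact test to 9 in Ov199 against NP and to 15 in RNAi against Ov199. In RNAi against NP, with 10 members called, 4 were called with reads divided by places, 4 with single-place reads, 2 with exact alignments and 3 with reads of 23 to 25 nt. A pseudocount of 100 left 14, 16 and 16 members past 2-fold in the 3 comparisons (Ov199 against NP, RNAi against NP, RNAi against Ov199), and requiring 10 reads left 33 and 31 in the first pair of these. Shares of all precursors under these alternatives were not counted, so the changes in these counts may not be particular to the members.

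The share of aligned reads at the members, given for NP, Ov199 and RNAi in this order, was 0.194%, 0.194% and 0.152% of adapter-trimmed reads. It was 11.2%, 9.77% and 9.18% of single-place reads, 6.50%, 5.40% and 4.71% of exact alignments, and 6.72%, 5.96% and 5.35% without sequences read 1 time. Of reads of 23 to 25 nt it was 28.6%, 29.6% and 23.3%, so that Ov199 was highest there, and without chr4-27017 it was 5.26%, 4.41% and 5.18%. Exact alignments raised the median share at the most used first position to 58.5%, that at the last position to 63.1% and that of 24 nt to 71.9%, and lowered the reads beyond the most abundant sequence to 50%. Without sequences read 1 time these were 57.5%, 64.1%, 70% and 50%. At members with 10 reads or more 68.4% of the reads lay beyond the most abundant sequence, and with identical precursors counted 1 time 11.1% of members had at least 50% multi-place reads.

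Of 47 calls of named members whose calls were recomputed, 13 remained under every alternative. The ratio of Ov199 against NP turned to 1.40 at chr5-21919 with exact alignments, and at chr4-27017 to 1.01 with adapter-trimmed reads and 1.12 with reads of 23 to 25 nt. The cause was not tested. Depth limits the precision, since the median member had 27 reads and 53 of 147 had fewer than 20. No paired analysis was possible because each line has 1 library.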
